A study of Homo sapiens with 2 samples.

Results

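Long non-coding RNAs named as antisense to another gene were measured in the human lung cancer line 95D, deprived of glutamine or of glucose for 48 h. They were taken as the names ending in -AS and a number for which the files give a value. There were 441 such names among the 9253 names with a value. Both cultures were wild type, spent 24 h in complete medium first, and then received glutamine-free or glucose-free DMEM with dialyzed serum. Their libraries are called the glutamine-free and the glucose-free library. Each condition has 1 library, so differences between them went without replication and carry no p-value. No sample of cells in complete medium was used here. The series' title and design text describe RNA pulled down with ALKBH5, the m6A demethylase, set against input RNA. Neither sample label says that its library is a pull-down or an input, so binding to ALKBH5 is not analysed here. The description of the glutamine sample also names the column of the glucose sample, and the condition of each library was taken from its title and treatment label.

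An antisense RNA is transcribed from the strand opposite to another gene, its sense gene, and is named after that gene with the suffix -AS. Some start beside the sense gene's own start and run away from it or back across its first exon, others run tail to tail with it, and others lie wholly within it. Antisense RNAs can act on the sense gene through the act of transcription or by pairing with its RNA, and some act elsewhere in the cell. Many are short-lived in the nucleus, where the exosome and its adaptors degrade them.

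The files list transcripts in rows without transcript identifiers, and every row with a value was above 0 in one library or both. Antisense names took 8585 of the 91835 rows, under 1777 names. A value was given for 783 of those rows, or 9.12%, against 20.3% of all rows, and 1336 antisense names had none. Values are read counts multiplied by 1 factor per library and not divided by length, so whole reads could be recovered from them. Recovered reads are given below wherever names are compared within a library. A longer transcript collects more reads, so an order by reads is not an order by number of molecules. The recovered reads of all names came to 1442570 in the glutamine-free library and 42827 in the glucose-free library, 33.7 times fewer. This gap and the unstated scaling factors bear on each comparison between the libraries. Whether the libraries kept strand is not given in the sources used here, and where an antisense RNA overlaps its sense gene, reads of the pair may not be told apart. Of the fixed markers, KRT8, KRT18, KRT19 and KRT7 of the 6 epithelial names had a value. So did NAPSA of the 5 lung lineage names, while NKX2-1 and SCGB1A1 were not listed. VIM, FN1 and ZEB1 of the 4 mesenchymal names also had one. EPCAM, CDH1, SFTPB, SFTPC and CDH2 of these lists were listed without a value. No leukocyte, endothelial, fibroblast or erythroid marker had a value. Of those markers, CD68, CD14, PECAM1, CDH5 and DCN were not listed and could not have one. Their lack of values therefore says little about other cell types. Summed epithelial markers came to 270 in the glutamine-free library and 200 in the glucose-free library, where KRT8 alone had a value above 0 (200, against 143 without glutamine). NAPSA stood at 18.9 in the glutamine-free library and 161 in the glucose-free library. The mesenchymal sum was 1058 in the glutamine-free and 344 in the glucose-free library. FN1 made up most of the first, at 963, and all of the second, as VIM and ZEB1 stood at 0 without glucose. The part of these differences in the results that follow was not tested. Rows under the marker names are the listed transcripts and not taken as their messenger RNA.

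In the glutamine-free library 436 of the 441 antisense names stood above 0 (98.9%), against 99.5% of all names with a value. Because of how rows received a value, these shares say little about how many antisense RNAs the cells made. The 436 names held 2 to 1845 reads, with a median of 22 (95% order-statistic interval 19 to 26) and quartiles of 10 and 53.3. Of them, 104 rested on fewer than 10 reads and 53 had 100 or more. A few names dominated, since the 5 highest held 19.3% and the 20 highest 39.9% of the 24745 antisense reads.

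SLC9A3-AS1 was first, with 1845 reads over 11 rows, a deposited value of 1459. It held 7.46% of all antisense reads and was listed at 0 in the glucose-free library. It lies at chr5:473236-480892 on the plus strand, inside the gene of the sodium-proton exchanger SLC9A3, which had 18 reads in 1 row. OIP5-AS1, also called Cyrano, a conserved RNA known for a site that pairs with the microRNA miR-7, followed with 850 reads and a value of 672. It was the highest antisense name in the glucose-free library, with 291 reads and a value of 368. It lies at chr15:41282697-41313338 on the plus strand and overlaps OIP5 tail to tail. GABPB1-AS1, at chr15:50354174-50358312, had 817 reads and was listed at 0 in the glucose-free library. It starts 1024 bases inside GABPB1, which encodes a subunit of a transcription factor of mitochondrial genes. PCGF3-AS1 had 627 reads and PAX8-AS1 520, both at 0 in the glucose-free library. PCGF3 is a Polycomb complex subunit and PAX8 a transcription factor of thyroid and kidney. DNAH17-AS1 had 459 reads, BCAN-AS2 458 and BCAN-AS1 382. SLC25A25-AS1 had 359, PSMA3-AS1 332, PCBP1-AS1 281 and TTN-AS1 280. From DNAH17-AS1 onward each of these was listed at 0 in the glucose-free library. Among the 15 antisense names with most reads, OIP5-AS1, NUTM2A-AS1, NUTM2B-AS1 and TMEM147-AS1 alone were above 0 in both libraries.

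The sequences around the starts of SLC9A3-AS1, OIP5-AS1 and TMEM147-AS1 are shown because SLC9A3-AS1 led the glutamine-free library and the other two led the glucose-free one. Each runs from 250 bases before to 50 bases after an annotated start, 5′ to 3′ on the antisense RNA's own strand, from RefSeq on GRCh38.p14. Capitals mark the GC box GGGCGG and the CCAAT box, on either strand, overlapping matches included. The SLC9A3-AS1 window is chr5:472986-473285, plus strand, the OIP5-AS1 window chr15:41283740-41284039, plus strand, and the TMEM147-AS1 window chr19:35545980-35546279, minus strand.
SLC9A3-AS1: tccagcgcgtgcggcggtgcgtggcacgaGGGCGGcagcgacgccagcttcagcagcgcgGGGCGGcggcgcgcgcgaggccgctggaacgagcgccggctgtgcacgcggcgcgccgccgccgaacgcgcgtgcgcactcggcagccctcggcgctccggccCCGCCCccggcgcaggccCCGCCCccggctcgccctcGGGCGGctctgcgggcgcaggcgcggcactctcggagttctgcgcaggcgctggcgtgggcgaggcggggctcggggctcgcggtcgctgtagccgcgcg
OIP5-AS1: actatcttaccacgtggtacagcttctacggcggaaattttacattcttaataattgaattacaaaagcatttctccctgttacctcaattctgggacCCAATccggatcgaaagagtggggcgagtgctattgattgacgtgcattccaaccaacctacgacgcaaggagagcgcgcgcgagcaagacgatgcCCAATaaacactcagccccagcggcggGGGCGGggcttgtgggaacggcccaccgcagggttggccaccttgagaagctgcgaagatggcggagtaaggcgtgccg
TMEM147-AS1: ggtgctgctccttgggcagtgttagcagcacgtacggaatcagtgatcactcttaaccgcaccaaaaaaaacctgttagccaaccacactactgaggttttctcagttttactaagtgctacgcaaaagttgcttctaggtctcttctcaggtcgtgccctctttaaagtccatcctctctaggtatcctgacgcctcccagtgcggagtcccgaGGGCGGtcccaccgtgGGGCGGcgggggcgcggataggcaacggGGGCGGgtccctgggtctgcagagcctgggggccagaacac
The SLC9A3-AS1 window had 5 GC boxes and a GC content of 82.3%. The OIP5-AS1 window had 1 GC box and 2 CCAAT boxes at a GC content of 54.3%, and that of TMEM147-AS1 had 3 GC boxes at 57.7%. No TATAAA stood in any of these windows. A match is a description of the letters and not evidence of binding.

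Antisense names resembled other non-coding names in reads per name and lay below names of protein-coding genes. Among names above 0 in the glutamine-free library, the median was 22 reads for antisense names, 19 (16 to 22) for 249 LINC names and 17 (12 to 20) for 199 divergent transcripts, whose names end in -DT. It was 40 (38 to 42) for 5627 protein-coding symbols. The antisense and LINC intervals overlapped, and the antisense and protein-coding intervals did not. A single row stood behind 66.9% of antisense names, 66.9% of LINC names and 46.3% of protein-coding symbols, and more rows add reads to a name. Rows under a protein-coding symbol are the listed transcripts and not taken as its messenger RNA. Antisense names together took 1.72% of reads in the glutamine-free library (95% Wilson interval 1.69 to 1.74%) and 2.88% (2.72 to 3.04%) in the glucose-free library. LINC names took 0.808% and 0.999%, and -DT names 0.498% and 0.320%, in the same order. Protein-coding symbols took 41.1% and 64.9%, so a higher share in the glucose-free library was not particular to antisense names. Without the single most abundant name of all, an unnamed locus, the antisense shares were 2.80% and 3.31%. Such intervals describe counting error alone, as reads carry no molecular identifiers and are not independent molecules.

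**Figure D1:**
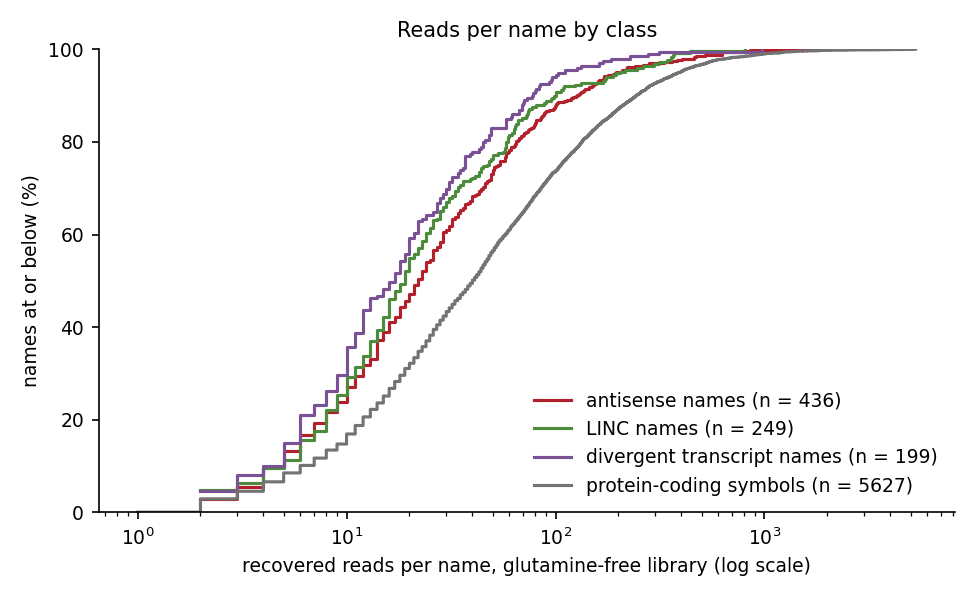
Cumulative percent of names (vertical axis) at or below a number of recovered reads (horizontal axis, log scale) in the glutamine-free library, for names above 0 there, in 4 classes. The antisense curve reaches its middle at 22 reads, near the curves of LINC names (19) and divergent transcripts (17) and left of that of protein-coding symbols (40).

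In the glucose-free library 15 antisense names stood above 0, or 3.40%, against 4.25% of all names with a value (393 of 9253), a share near that background. The 15 held 10 to 291 reads with a median of 69 (37 to 104). None rested on fewer than 10 reads, while 104 did in the glutamine-free library. Names of any kind above 0 differed likewise, with a median of 26 reads in the glutamine-free and 81 in the glucose-free library. Fewer than 10 reads stood behind 20.9% of them in the glutamine-free and 13.2% in the glucose-free library. OIP5-AS1 alone took 23.6% of the 1232 antisense reads there, and 3.44% of the antisense reads in the glutamine-free library. Of the 15, 10 were above 0 in both libraries. TMEM147-AS1, beside the gene of a membrane protein of the endoplasmic reticulum translocon, had 402 reads in the glutamine-free and 113 in the glucose-free library. NRSN2-AS1 had 54 reads in the glutamine-free and 111 in the glucose-free library. EPB41L4A-AS1, also known as TIGA1, a name given for its induction on growth arrest and a host of a small nucleolar RNA, had 220 in the glutamine-free and 104 in the glucose-free library. TRAF3IP2-AS1, named for an interleukin-17 receptor adaptor, had 58 without glutamine and 91 without glucose. RAB33B-AS1, named for a Golgi and autophagy GTPase, had 57 without glutamine and 86 without glucose. FGD5-AS1 had 81 without glutamine and 75 without glucose. FRMD6-AS2, inside the gene of a Hippo pathway protein, had 29 without glutamine and 65 without glucose. The order of these 10 differed, with NUTM2A-AS1 the second in the glutamine-free library and the ninth in the glucose-free library.

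The other 5 names had a value in the glucose-free library alone, each from 1 row. STEAP3-AS1, inside the gene of an endosomal ferrireductase, had 69 reads and a value of 87.2. DNMT3L-AS1, named for a cofactor of DNA methyltransferases, had 65 reads. HAND2-AS1, head to head with the gene of a heart and limb transcription factor, had 37 reads, COL4A2-AS2, named for a collagen IV chain, 35, and RBMS3-AS3, named for an RNA-binding protein, 10. All 5 were listed at 0 in the glutamine-free library, and none of the 15 values rested on more than 1 row in the glucose-free library. Few rows per name were general there, with 472 row values of up to 1000 reads for 393 names of any kind above 0.

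**Figure D2:**
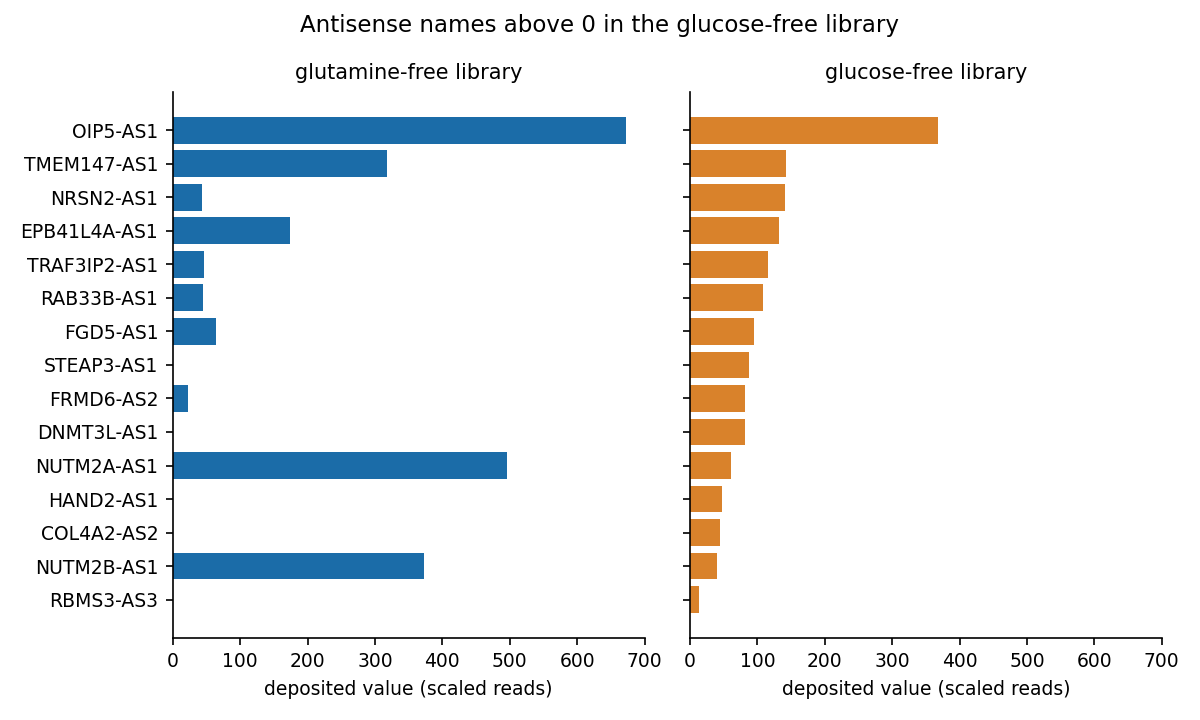
Deposited values (horizontal axes, scaled reads, the same range in both panels) of the 15 antisense names above 0 in the glucose-free library, with the glutamine-free library on the left and the glucose-free library on the right. OIP5-AS1 is highest in both, at 672 and 368, NUTM2A-AS1 and NUTM2B-AS1 stand high on the left only, at 496 and 373 against 60.7 and 40.5, and 5 names have no bar on the left.

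The row that carried a name's reads was not always the same in the 2 libraries. Of the 9 names above 0 in the glucose-free library with several rows, 3 had these reads in the row highest in the glutamine-free library. The other 6 did not. The same count was not made for names of any kind, so it is not read as a trait of antisense names. For OIP5-AS1, the row with all 291 reads of the glucose-free library held 606 of 850 reads in the glutamine-free library, or 71.3% (Wilson interval 68.2 to 74.2%). For EPB41L4A-AS1 it held 86.8% (81.7 to 90.7%) and for FGD5-AS1 84.0% (74.5 to 90.4%). In contrast, the row with all 113 TMEM147-AS1 reads of the glucose-free library held 16 of 402 reads in the glutamine-free library, 3.98% (2.46 to 6.37%). The RAB33B-AS1 row with 86 reads in the glucose-free library had 0 of 57 reads in the glutamine-free library, which allows a share of up to 6.31% by the Wilson interval. TRAF3IP2-AS1 and FRMD6-AS2 lay between, at 31.0% (20.6 to 43.8%) and 41.4% (25.5 to 59.3%). Counted by row, 9 antisense rows had reads in both libraries, 768 had them without glutamine only and 6 without glucose only. A read can fit several overlapping transcripts of a name, and how such reads were divided is not stated.

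**Figure D3:**
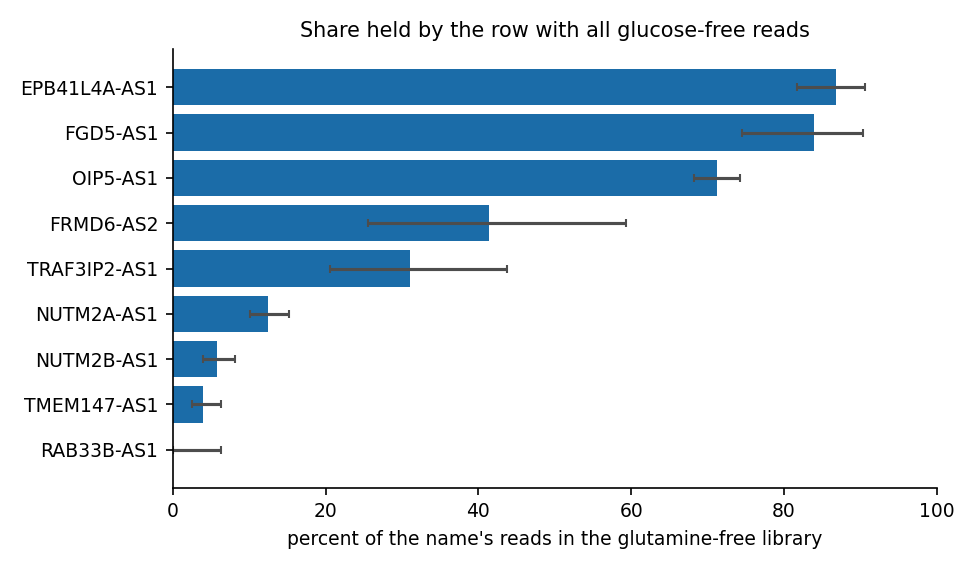
For the 9 antisense names with several rows and a value above 0 in the glucose-free library, bars give the percent of the name's reads in the glutamine-free library (horizontal axis) held by the 1 row with all of its glucose-free reads. Error bars are 95% Wilson intervals, and the bars run from 86.8% for EPB41L4A-AS1 to 0% for RAB33B-AS1.

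NUTM2A-AS1 and NUTM2B-AS1 belong to near-identical copies of a region of chromosome 10. Both are among the names whose direction between the libraries turns with the scaling, with log2 ratios of 3.01 and 3.17 as deposited and -1.36 and -1.19 after rescaling to a common sum. NUTM2A-AS1, at chr10:87238667-87342558 on the minus strand, had 628 reads over 19 rows in the glutamine-free library and 48 reads in the glucose-free library. NUTM2B-AS1, at chr10:79691500-79826594 on the same strand, had 472 reads over 8 rows and 32 reads. Their promoter windows share a stretch of 223 bases, chr10:87342586-87342808 and chr10:79826545-79826767 on GRCh38.p14, minus strand, from RefSeq. The stretch is shown 5′ to 3′ with the bases that differ in capitals, because it shows how alike the copies are there. It was taken as the part that the windows share, so it does not measure likeness elsewhere in the copies.
NUTM2A-AS1: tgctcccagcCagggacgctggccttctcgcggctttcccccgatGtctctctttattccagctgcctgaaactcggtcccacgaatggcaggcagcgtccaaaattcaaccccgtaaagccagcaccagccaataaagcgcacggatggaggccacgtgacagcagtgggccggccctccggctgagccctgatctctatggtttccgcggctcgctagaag
NUTM2B-AS1: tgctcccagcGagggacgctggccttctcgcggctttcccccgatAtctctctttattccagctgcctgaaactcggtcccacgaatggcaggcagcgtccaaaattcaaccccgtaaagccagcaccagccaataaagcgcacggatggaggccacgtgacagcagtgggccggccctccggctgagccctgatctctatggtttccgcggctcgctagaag
The stretch was identical at 221 of 223 positions. The transcribed sequences were not compared here, and whether reads of one name were counted under the other was not tested, so both values are uncertain.

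Which direction the names above 0 in both libraries took depended on the scale. As deposited, on log2(value + 1), 3 of these 10 were higher by 2-fold or more in the glutamine-free library, against 42.2% of the 351 names of any kind above 0 in both. In the glucose-free library 4 of the 10 were, against 25.4%. The 3 were NUTM2B-AS1 (log2 ratio 3.17), NUTM2A-AS1 (3.01) and TMEM147-AS1 (1.15). The 4 were FRMD6-AS2 (-1.80), NRSN2-AS1 (-1.69), TRAF3IP2-AS1 (-1.31) and RAB33B-AS1 (-1.25). OIP5-AS1, EPB41L4A-AS1 and FGD5-AS1 lay between, at 0.87, 0.40 and -0.56. With each library rescaled to the same sum, all 10 were 2-fold or more higher in the glucose-free library, as were 86.9% of the 351 names, and 0 of 10 were so in the glutamine-free library, against 5.98%. The glutamine-free sum includes 1 unnamed locus with 559463 of the 1442570 reads, and a rescaling without it was not run. No direction is therefore given for the 10 names. Shares among the 10 names do not depend on the scale. OIP5-AS1 held 29.8% (28.2 to 31.5%) of their 2851 reads in the glutamine-free library and 28.6% (25.9 to 31.5%) of their 1016 reads in the glucose-free library, overlapping intervals. TMEM147-AS1 held 14.1% (12.9 to 15.4%) without glutamine and 11.1% (9.33 to 13.2%) without glucose. NUTM2A-AS1 held 22% (20.5 to 23.6%) without glutamine and 4.72% (3.58 to 6.21%) without glucose. NUTM2B-AS1 held 16.6% (15.2 to 18.0%) without glutamine and 3.15% (2.24 to 4.41%) without glucose. NRSN2-AS1 held 1.89% (1.45 to 2.46%) without glutamine and 10.9% (9.15 to 13.0%) without glucose. FRMD6-AS2, RAB33B-AS1, TRAF3IP2-AS1 and FGD5-AS1 held 1.02 to 2.84% without glutamine and 6.40 to 8.96% without glucose. For these 4, the NUTM2 pair and NRSN2-AS1, 7 of the 10, the intervals did not overlap between the libraries, and for OIP5-AS1, TMEM147-AS1 and EPB41L4A-AS1 they did, which is a statement about 2 libraries and not about the conditions.

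Over all 441 names the between-library comparison mostly repeats which names were listed at 0. As deposited, 429 antisense names were 2-fold or more higher in the glutamine-free library, 97.3%, against 97.4% of all names. In the glucose-free library 9 were, or 2.04%, against 1.42% of all names. These 9 were the 5 names above 0 in that library alone and the 4 named above. As 96.6% of the 441 stood at 0 without glucose, the count of 429 comes mostly from names with no reads there, and it was also 429 with a pseudocount of 0.1. Rescaled to the same sum, the counts were 426 higher in the glutamine-free library, 96.6%, against 96% of all names, and 15 higher in the glucose-free library, 3.40%, against 3.75%. The median log2 ratio as deposited was 4.07 (3.93 to 4.26) for antisense names and 4.32 for all names. As most names stood at 0 without glucose, these medians mostly restate levels in the glutamine-free library.

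For 202 of the 441 antisense names the sense name also had a value. For 79 more the sense name was listed without a value, and for 160 it was not listed. In the glutamine-free library the antisense name had more reads than the sense name in 73 pairs (36.1%), fewer in 125 and the same number in 4. The median log2 of antisense over sense, on values + 1, was -0.84 (-1.22 to -0.48), with median reads of 22 for antisense and 39 for sense names. Row numbers move with this. In the 67 pairs with 1 row on each side the median was 0 (-0.85 to 0.24), with 30 antisense names higher and 33 lower. For comparison, the -DT names had more reads than their neighbour in 34 of 103 pairs, with a median of -0.95 (-1.63 to -0.40). The ranks of antisense and sense reads over the 202 pairs were all but unrelated (Spearman's rho 0.06), and the same held for the 79 pairs with 20 or more reads on each side (0.03). Both names of a pair share a library, and names are not replicates. Rows under a sense name are the listed transcripts and, here and below, not taken as its messenger RNA.

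The antisense name most exceeded its sense name for SLC9A3-AS1, with 1845 reads against 18 for SLC9A3 (log2 6.58 on values). PAX8-AS1 had 520 reads and PAX8 had 7. THUMPD3-AS1 had 171 and THUMPD3, which encodes a tRNA methyltransferase, 3. C1RL-AS1 had 113 reads and C1RL, a complement protease gene, 2. RAB4A-AS1 had 192 and RAB4A, a recycling endosome GTPase gene, 7, each in 1 row. TMEM147-AS1 had 402 reads and TMEM147 25 in 1 row. At the other end ENO1-AS1, beside the glycolytic enolase gene ENO1, had 2 reads and ENO1 553 over 4 rows (log2 -7.42). SPTBN1-AS2 had 5 and SPTBN1, which encodes a spectrin chain, 496. GAS5-AS1 had 10 and GAS5, which hosts snoRNAs, 858 over 53 rows. UBQLN1-AS1 had 5 and UBQLN1, a gene of protein quality control, 343. ARAP1-AS2 had 6 and ARAP1 376. Values of overlapping pairs such as PAX8-AS1 and PAX8 carry the limit on strand given above. SLC9A3, PAX8, THUMPD3, C1RL and RAB4A each rested on 1 row with a value, so these reads do not measure the output of the gene.

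**Figure D4:**
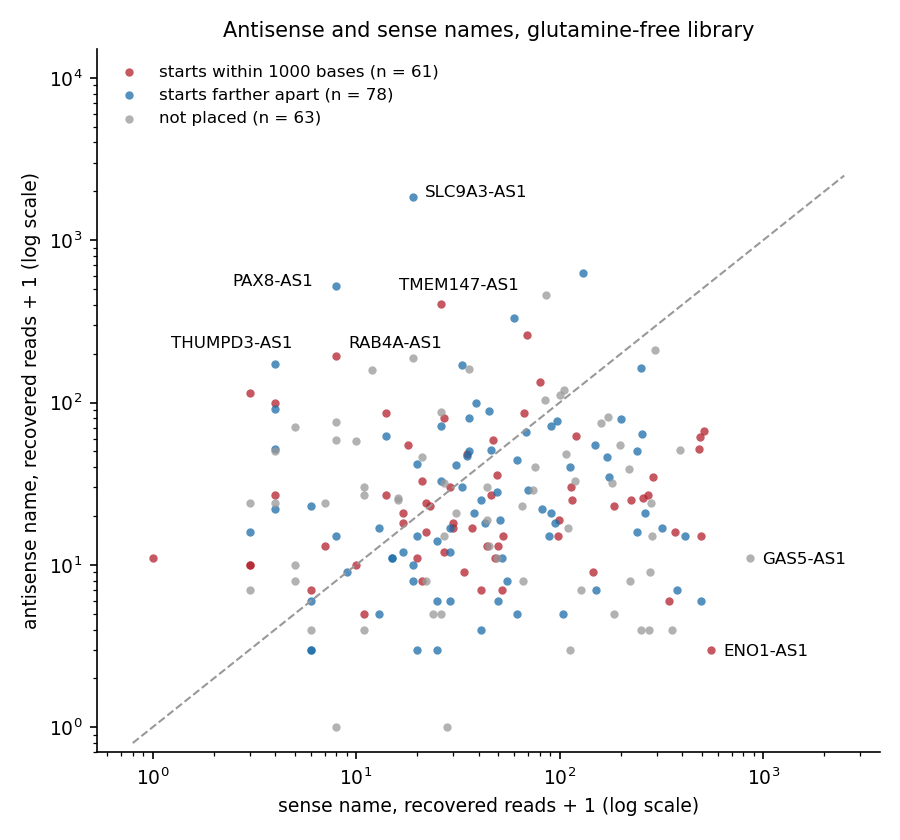
Recovered reads + 1 of the sense name (horizontal axis, log scale) and the antisense name (vertical axis, log scale) in the glutamine-free library for 202 pairs, coloured by the distance between their starts, with a dashed line of equality. Of the points, 125 pairs have fewer antisense than sense reads and 73 more, and no slope is visible.

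In the glucose-free library no pair had both names above 0. Only 4.25% of all names with a value stood above 0 there, so such pairs would be rare by that share. Their absence is not read as exclusion between antisense and sense names. The antisense name alone was above 0 in 5 pairs, the sense name alone in 10, and neither in 187. The 5 were TMEM147-AS1, TRAF3IP2-AS1, FRMD6-AS2, COL4A2-AS2 and RBMS3-AS3, and their sense names had values of 19.8, 5.52, 25.3, 5.52 and 21.3 in the glutamine-free library. The 10 were sense names of AP1G2-AS1, CSRP1-AS1, EML2-AS1, GAS5-AS1, GNAS-AS1, GTF2I-AS1, NCBP2-AS1, OSTM1-AS1, SLC12A5-AS1 and UBQLN1-AS1. UBQLN1 had the highest value of these sense names in the glucose-free library, 584, against 271 in the glutamine-free library, where GAS5 and CSRP1 stood above it at 678 and 404. UBQLN1-AS1 had 3.94 without glutamine and was at 0 without glucose.

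RefSeq's annotation placed 294 of the 441 names against their sense gene, from gene spans and, where a promoter window gave one, strands on GRCh38.p14, the build hg38 that the submitters' processing notes name. By symbol 425 of the 441 matched, 422 of them annotated as long non-coding RNA. The spans of antisense and sense gene overlapped for 236 of the 294. Head to head with overlap was the most common arrangement, with 117 names, followed by antisense inside sense (57), divergent without overlap (53), tail to tail (51), sense inside antisense (10) and convergent without overlap (5). FAM131B-AS2 was on the strand of its sense gene in this annotation. Median reads in the glutamine-free library were 168 for the 5 convergent names, 43 for the tail to tail names, 35 for the 10 with the sense gene inside, 26 for divergent, 21 for head to head and 16 for those inside the sense gene. The quartiles overlapped, at 12.5 to 85 for tail to tail and 8 to 31 for names inside. Names with starts within 1000 bases of the sense start (117) had a median of 24 reads and the 177 farther away 22. Among pairs with values on both sides, the antisense name was higher in 13 of 27 tail to tail pairs, 13 of 28 divergent pairs, 16 of 56 head to head pairs and 6 of 27 pairs with the antisense name inside. Of the 10 placed names above 0 in the glucose-free library, TMEM147-AS1 was the 1 with a start within 1000 bases, at 403 bases from the start of TMEM147.

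**Figure D5:**
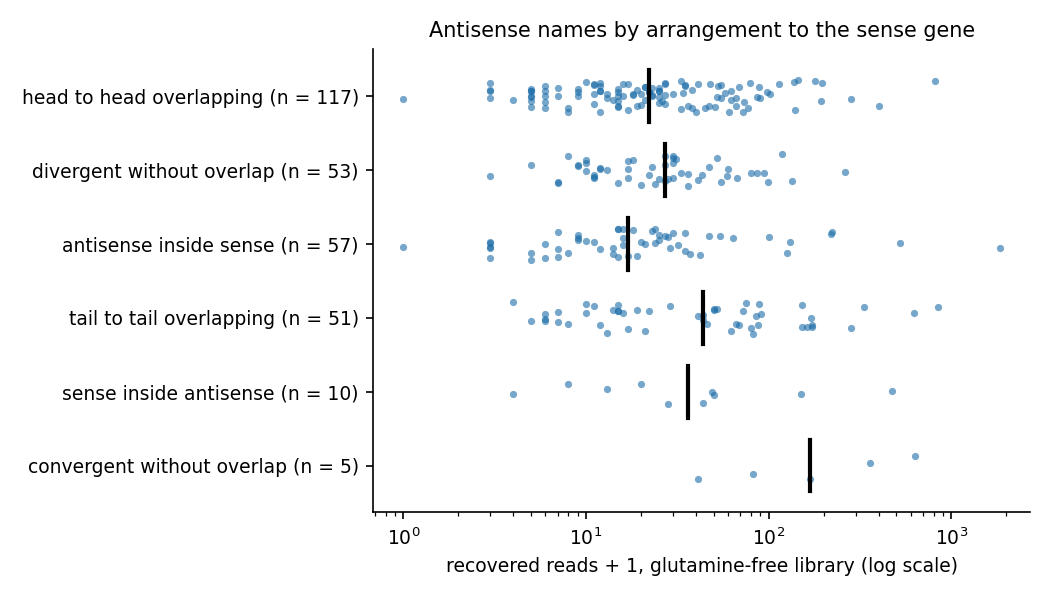
Recovered reads + 1 in the glutamine-free library (horizontal axis, log scale) of antisense names by their arrangement to the sense gene; each point is a name, points are spread vertically to be seen, and black lines are medians. Tail to tail names have a median of 43 reads and names inside the sense gene 16, and all groups spread over wide, overlapping ranges.

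GTF3C2-AS2 shows the closest arrangement among the named RNAs. It starts at position 27356765 of chromosome 2 on the plus strand, 1 base from the start of GTF3C2, which encodes a subunit of the RNA polymerase III factor TFIIIC and runs the other way. It had 261 reads and GTF3C2 68 in the glutamine-free library, against 0 for each in the glucose-free library. Its promoter window, chr2:27356515-27356814 on GRCh38.p14, plus strand, from RefSeq, is shown with the 100 bases in capitals that also lie in the window of GTF3C2 on the opposite strand.
GTF3C2-AS2: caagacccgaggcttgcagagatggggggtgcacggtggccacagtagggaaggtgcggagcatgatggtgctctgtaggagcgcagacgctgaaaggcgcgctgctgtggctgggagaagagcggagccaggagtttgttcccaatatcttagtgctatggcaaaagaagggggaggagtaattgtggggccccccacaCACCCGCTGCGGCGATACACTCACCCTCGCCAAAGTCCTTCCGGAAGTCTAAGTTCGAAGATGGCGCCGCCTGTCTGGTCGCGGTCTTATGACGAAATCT

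Promoter windows of the measured antisense names were richer in CpG than those of antisense symbols without a value and poorer than those of protein-coding symbols with a value. Starts were matched for 336 of the 441 names. The ratio of observed to expected CpG, a measure of CpG island character, was 0.6 or more in 65.5% of them. The share was 31.8% of 1187 antisense symbols without a value, 43.0% of 179 LINC symbols with a value and 84.9% of 4704 protein-coding symbols with a value. Over all 15843 protein-coding symbols, with or without a value, it was 65.6%, close to the antisense names. It was 48.8% of all 27305 symbols. Among placed antisense names it was 87.2% where the starts lay within 1000 bases and 53.7% where they lay farther apart. GGGCGG on either strand stood in 56.5% of antisense windows and 44.5% of all windows, CCAAT in 28.3% and 35.7%, and TATAAA in 5.95% and 12%. Among protein-coding symbols with a value the shares were 71.6%, 36.7% and 5.12%. For LINC symbols with a value they were 41.9%, 38.0% and 11.2%. These are shares of windows of 1 length and draw nothing about a factor.

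Of 69 antisense RNAs chosen for their study in cancer, 57 were listed and 31 had a value. Above 0 were 30 of the 31 in the glutamine-free library and 3 in the glucose-free library, against 99.5% and 4.25% of all names. Of the 31, 28 were 2-fold or more higher in the glutamine-free library and 1, HAND2-AS1, in the glucose-free library, against 97.4% and 1.42% of all names. Their median log2 ratio was 4.84, against 4.32 for all names, and mostly restates levels in the glutamine-free library. After OIP5-AS1, PSMA3-AS1, tail to tail with the gene of a proteasome subunit, was highest at 263 in the glutamine-free library, then TTN-AS1 at 221. SLC16A1-AS1, named for the lactate transporter MCT1, stood at 149 and SLC16A1 at 14.2 without glutamine, against 0 for each without glucose. MCM3AP-AS1 stood at 128 and GAS6-AS1 at 124, again against a listed 0. FGD5-AS1, the last of the 3 above 0 in the glucose-free library, stood at 64.0 without glutamine and 94.8 without glucose. Of 14 antisense RNAs of the HOX clusters, which pattern the body axis, 10 were listed and 2 had a value. HOXC-AS1 stood at 3.15 and HOXB-AS3 at 2.35 in the glutamine-free library, both at 0 in the glucose-free library.

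Genes of the machinery that degrades or binds such RNAs were described for comparison. Of 18 nuclear exosome subunits and adaptors, 15 were listed and 11 had a value. Of the 11, 10 were above 0 in the glutamine-free library and 1 in the glucose-free library. The shares over all names were 99.5% and 4.25%, so these counts lie near the background. EXOSC2, a cap subunit, stood at 327 and ZCCHC8, of the nuclear exosome targeting complex, at 102, both against a listed 0 in the glucose-free library. MTREX, the helicase that feeds RNA to the exosome, was listed at 0 in the glutamine-free and at 72.1 in the glucose-free library. Of 17 proteins that bind or edit double-stranded RNA, 14 were listed and 11 had a value, all 11 above 0 in the glutamine-free library. ADAR, the main adenosine-to-inosine editor, was the 1 above 0 in both, at 1141 without glutamine and 282 without glucose. DICER1, which cuts microRNA precursors, stood at 385 in the glutamine-free library, against 0 in the glucose-free library. These values are those of the rows listed under each name.

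At 7 sense names 2 antisense names each had a value, and reads were uneven at most of these. DLGAP1-AS2 had 218 reads and DLGAP1-AS1 24 in the glutamine-free library. ADAMTSL4-AS1 had 74 and ADAMTSL4-AS2 5, and PSMD6-AS2 had 43 and PSMD6-AS1 4. BCAN-AS2 and BCAN-AS1, with 458 and 382, and SYNM-AS1 and SYNM-AS2, with 11 and 9, were closer to each other. All 14 were listed at 0 in the glucose-free library, as were 96.6% of the 441 antisense names.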

How the data were processed

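The files hold 1 value per listed transcript for each of 2 RNA libraries of 95D cells, glutamine-free and glucose-free. Per the submitters' processing notes, HISAT2 2.0.5, StringTie and the build hg38 were used; the role of each, the counting, the annotation and the scaling are not stated. Per the file headers, rows carry long non-coding RNA gene names, and no unit is stated; the header of the glucose-free file reads Glu. The deposited values are scaled read counts: they climbed in steps of 0.791 and 1.26, with offsets of -0.02 and 0.02, and 100% of values up to 1000 reads were whole within 0.1 read after removing these. Values under 1e-09 were set to 0, and rows without a number were left out. The table of the whole series repeats these values and was left out.

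Rows were summed per name. A minimum of 1 in one of the libraries was set, and all names met it. Ratios between libraries are glutamine-free over glucose-free on the scale log2(value + 1), so low names look less different than they are. No test was run; 2-fold marks are descriptions. Intervals are 95% Wilson intervals for shares and order-statistic intervals for medians. The members and lists were chosen with earlier results of these data known. The named genes were the 15 antisense names highest in each library, all above 0 in the glucose-free library, the largest and smallest ratios between libraries and between antisense and sense names, and members of the lists, as far as they added to the text. Sequences, starts and spans are RefSeq's on GRCh38.p14. Calculations used Python 3.11.15, pandas 2.3.3, scipy 1.17.1 and Biopython 1.88. Recovery of reads and 2-fold marks were tested on simulated libraries of like depth. The gap in reads between the real libraries was not part of that test.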

Additional observations from a re-analysis of the deposited data

How the results depend on the processing

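Of 41 recomputed values, 24 kept their direction and stayed within 1.5 times a count or within the interval of a median or share, 15 moved and 2 changed sign. No paired analysis was possible because each condition has 1 library. Rescaling to a common sum gave 15 antisense names at least 2-fold higher in the glucose-free library (9 as deposited) and a median log2 ratio of 3.89 (4.07 as deposited). Centring on the median of all names, which by itself evens out the sides, gave 108 names higher in the glutamine-free and 143 higher in the glucose-free library, and turned the median to -0.25. Requiring 1 in both libraries left 10 names, 3 and 4 of them 2-fold apart in that order, with a median of -0.079. The median was 7.31 with a pseudocount of 0.1 and 4.43 with a minimum of 5. At 4-fold, 5 names were higher in the glucose-free library. In 45 pairs the antisense name was at least 2-fold above the sense name, against 73 above it at all. The antisense share of reads in the glutamine-free library was 1.75% with -AS names lacking digits, 2.80% without the most abundant name and 3.01% among gene symbols, and in the glucose-free library 3.31% and 3.67% under the last 2 of these. The low sum of recovered reads is a limit, at 42827 in the glucose-free library. That sum covers only rows with a value and is not the sequencing depth.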

Other observations

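Other names built on a neighbouring gene were also mostly listed at 0 in the glucose-free library, as were names of any kind. Of all names with a value, 4.25% stood above 0 there and 99.5% in the glutamine-free library. Of 199 divergent transcripts, RNAs that start beside a gene and run away from it, all were above 0 in the glutamine-free library and 2 in the glucose-free library. GARS1-DT, beside the gene of glycyl-tRNA synthetase, led them with 971 reads in the glutamine-free library and a listed 0 in the glucose-free library, followed by SLC12A2-DT with 314 reads. The 2 were TMCC1-DT, with 37 reads in the glutamine-free and 69 in the glucose-free library, and BARX1-DT, with 3 and 68. Of 39 intronic transcripts with names ending in -IT, 39 were above 0 in the glutamine-free library and 0 in the glucose-free library. SND1-IT1 was highest with 186 reads. Of 9 names ending in -AS without a number, BACE1-AS, opposite the gene of the beta-secretase that cleaves amyloid precursor protein, had 148 reads and PINK1-AS, opposite the gene of a mitochondrial quality-control kinase, 108. Both were listed at 0 in the glucose-free library. EVA1A-AS was the 1 of these 9 above 0 there, with 62 reads, and it was listed at 0 in the glutamine-free library.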
